A study of Mus musculus with 12 samples.

Results

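The 9 germline genes described here are Dazl, Ddx4, Stk31, Mael, Sycp1, Sycp3, Hormad1, Taf7l and Tex101. They were found by symbol among the 47729 genes of an RNA sequencing table of mouse embryonic stem cells, and each symbol matched 1 row. The cells were of the E14Tg2a line. The delta line, labelled delta 0.7, lacks a regulatory region of Tcf15 on both alleles, and the other line was wild type (WT). Both lines were taken at 0 h in 2i medium with LIF, and at 12 h and 24 h after transfer to fibronectin with Activin, bFGF and KOSR, which turns naive cells into epiblast-like cells. There were 2 libraries in each of the 6 groups. The delta columns carry 1 clone name, so genotype and clone cannot be told apart. Nothing states that the 2 libraries of a group were separate cultures, so p-values measure only the spread between these libraries, which may be technical.

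Germ cells use a set of genes for RNA regulation, for the defence against transposons by small RNAs, and for the pairing of chromosomes in meiosis. In other cells of the mouse these genes are kept quiet, many of them by methylation of a CpG-rich promoter and by repressor complexes such as PRC1.6, which contains MGA, MAX and E2F6. Naive stem cells in 2i have little DNA methylation, and the de novo methyltransferases Dnmt3a and Dnmt3b, with their partner Dnmt3l, are known to come up as the cells leave that state. DNA methylation was not measured in these libraries, so the known mode of silencing is background here and not a result.

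The promoters are shown first because several of the 9 genes carry motifs there that were not used to choose them. The windows are those of RefSeq on GRCm38.p6 and hold 300 bases, from 250 before the start of the gene to 50 after it. The RefSeq start lies within 165 bases of the 5′ end of the GENCODE M21 gene span for 8 of the genes. For Tex101 it lies 4625 bases inside that span, so the Tex101 window is not at the 5′ end of the span given below. The motif CACGTG, the letters to which MAX partners such as MGA bind, was searched on both strands, which read the same. It lay in 7 of the 9 windows, against 7.24% of 27025 windows of all genes. The letters TCCCGC, the core of E2F sites, were searched on both strands (GCGGGA on the other) and lay in 5 of the 9 windows, against 20% of all windows. Both motifs stood together in the windows of Ddx4, Mael, Sycp1, Sycp3 and Hormad1, which is 5 of 9 against 2.05% of all windows. The motifs do not overlap in any of the 9 windows. Stk31 and Taf7l had CACGTG alone, and Dazl and Tex101 had neither of these runs of letters in the window. A match is a run of letters, not a measured binding site. Both motifs contain a CpG, and the 9 windows hold 15 to 38 CpG against a median of 7 over all windows. Shares over windows of like CpG content were not counted.

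The windows of the 3 genes called in the tests below, and that of Dazl, which has neither motif, are printed 5′ to 3′ on the strand of the gene, with every match to either motif in capitals.
Ddx4: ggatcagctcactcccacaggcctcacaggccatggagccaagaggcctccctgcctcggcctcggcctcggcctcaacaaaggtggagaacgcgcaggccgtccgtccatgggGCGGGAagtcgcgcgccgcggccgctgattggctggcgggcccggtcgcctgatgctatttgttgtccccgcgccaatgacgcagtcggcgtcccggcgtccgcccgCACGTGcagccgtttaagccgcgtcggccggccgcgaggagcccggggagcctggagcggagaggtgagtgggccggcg
Mael: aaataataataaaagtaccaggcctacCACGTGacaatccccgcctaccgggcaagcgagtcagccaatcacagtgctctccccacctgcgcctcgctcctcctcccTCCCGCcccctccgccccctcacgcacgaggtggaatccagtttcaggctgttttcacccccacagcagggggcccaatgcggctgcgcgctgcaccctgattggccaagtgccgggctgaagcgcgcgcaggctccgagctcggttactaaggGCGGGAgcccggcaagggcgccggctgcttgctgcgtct
Hormad1: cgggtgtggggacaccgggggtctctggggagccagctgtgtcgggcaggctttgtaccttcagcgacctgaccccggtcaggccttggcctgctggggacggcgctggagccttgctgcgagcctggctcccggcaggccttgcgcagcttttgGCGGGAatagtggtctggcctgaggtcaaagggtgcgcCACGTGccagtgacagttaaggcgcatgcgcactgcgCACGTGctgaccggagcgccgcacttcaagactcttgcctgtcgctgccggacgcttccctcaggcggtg
Dazl: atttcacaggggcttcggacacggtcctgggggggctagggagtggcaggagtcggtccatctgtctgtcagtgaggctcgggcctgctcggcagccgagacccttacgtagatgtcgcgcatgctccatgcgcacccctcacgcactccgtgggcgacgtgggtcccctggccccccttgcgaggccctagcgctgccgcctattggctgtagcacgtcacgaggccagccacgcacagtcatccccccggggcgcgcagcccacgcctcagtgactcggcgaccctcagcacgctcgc
These windows lie at chr13:112652261-112652560 on the minus strand for Ddx4, chr1:166238695-166238994 on the minus strand for Mael, chr3:95559427-95559726 on the plus strand for Hormad1 and chr17:50293571-50293870 on the minus strand for Dazl. The first base of CACGTG stood 29 bases before the start in Ddx4 and 223 bases before it in Mael. In Hormad1 the 2 copies of CACGTG began 57 and 20 bases before the start. The Ddx4 window held 38 CpG dinucleotides, the Dazl window 28, and those of Mael and Hormad1 24 each, against a median of 7 over all windows. As many CpG as in Ddx4 were found in 4.78% of all windows, and as many as in Sycp3, with 15 the fewest of the 9, in 35.2%.

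Levels are in FPKM, read fragments per kilobase of exon, adjusted for the depth of each library. Between 9740851 and 17571255 reads per library could be recovered from the steps in the values, and 1 read on a kilobase of exon was worth 0.0569 to 0.111 FPKM. The test was limma on log2(FPKM + 1) over the 13981 genes with at least 1 FPKM in at least 2 libraries. A gene was called at a Benjamini-Hochberg adjusted p under 0.05. All 9 germline genes passed that filter, but Sycp1 reached 1 FPKM in 6 libraries, Taf7l in 5 and Tex101 in 3, and those of Taf7l and Tex101 were all from 12 or 24 h. Ddx4 reached 1 FPKM in 1 of the 4 libraries of 0 h, so Ddx4, Taf7l and Tex101 passed only through later libraries, and 6 of the 9 genes would have passed on the 0 h libraries alone. The replicate 1 libraries of 0 h stood apart. Ribosomal protein genes took 13.6% of reads in delta and 11.6% in WT there, against 5.82% to 7.59% in the other 10 libraries. The log2 gap between the replicates of a group had an SD over genes of 0.834 in delta and 0.660 in WT at 0 h, against 0.312 to 0.416 at 12 and 24 h. The replicate numbers also differed at every time in both genotypes. Mitochondrial genes took 0.45% to 0.65% of reads in replicate 1 libraries and 1.80% to 2.87% in replicate 2 libraries. As a check of the labels, Tcf15 lay between 1.04 and 4.44 FPKM in the 6 delta libraries and between 3.45 and 99.4 FPKM in the 6 WT libraries. It was lower in delta than in WT in each same-numbered pair at each time.

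Each of the 9 genes had reads in every library of 0 h, but Taf7l and Tex101 had only 1 to 12 reads per library there. None of the 9 was called lower than at 0 h at 12 or 24 h, where 1.90% to 7.80% of all genes were. Ddx4, Taf7l and Tex101 passed the filter only through later libraries, which works against a lower call for them. The mean FPKM over the 12 libraries was 12.8 for Sycp3, 9.01 for Hormad1, 8.93 for Dazl, 4.27 for Stk31, 2.64 for Mael and 2.09 for Ddx4. It was 1.08 for Taf7l, 0.991 for Sycp1 and 0.71 for Tex101. Sycp3 thus lay above 66.4% of the genes tested and Tex101 above 4.86%. The order of the 3 lowest, and that of Hormad1 and Dazl, rests on differences smaller than the spread over the libraries.

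**Figure D1:**
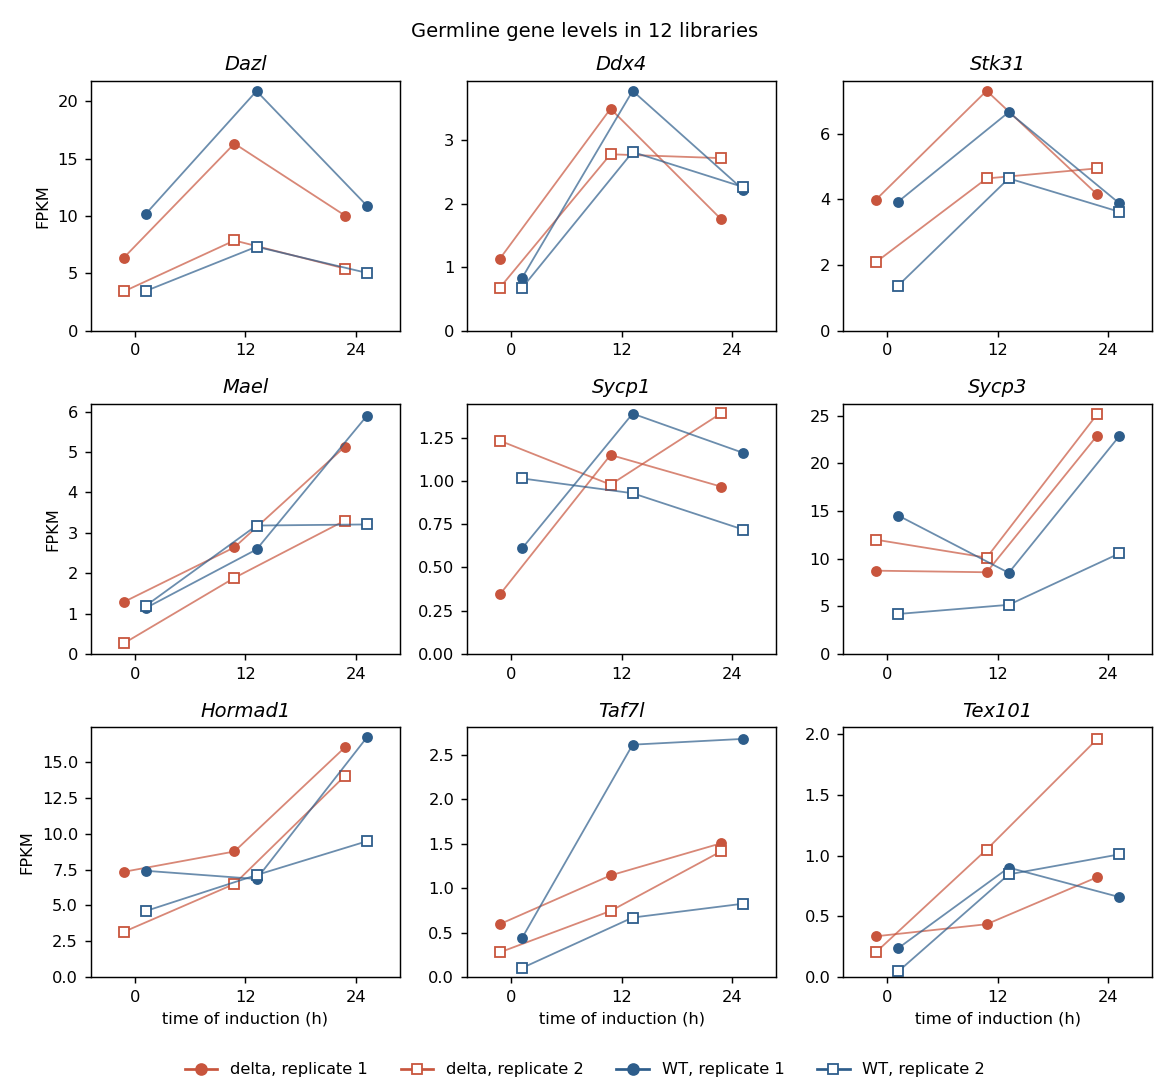
FPKM of each of the 9 germline genes in every library at 0, 12 and 24 h, with delta left of WT and 1 point per library (filled for replicate 1, open for replicate 2). Lines join libraries of the same number. Dazl and Ddx4 are highest at 12 h, and Mael, Sycp3 and Hormad1 at 24 h, in both genotypes, for example Mael with 5.13 and 3.30 FPKM in delta and 5.90 and 3.21 FPKM in WT at 24 h.

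Among the genes for RNA regulation and the small RNA pathway, Ddx4 was called higher at 12 h than at 0 h in both genotypes. Ddx4 encodes the VASA RNA helicase of germ granules (chr13:112598333-112652475, minus strand, mm10). Ddx4 had 1.14 and 0.679 FPKM (replicates 1 and 2, as in all such pairs) at 0 h, 3.49 and 2.78 at 12 h, and 1.76 and 2.72 at 24 h in delta libraries. In WT, Ddx4 had 0.831 and 0.674 FPKM at 0 h, 3.77 and 2.81 at 12 h, and 2.22 and 2.26 at 24 h. Every 12 h and 24 h library lay above every 0 h library of its genotype, and every 12 h library above every 24 h library. The change from 0 h to 12 h was 1.12 ± 0.23 in delta (log2, SE, adjusted p = 0.019) and 1.29 ± 0.23 in WT (adjusted p = 0.015). Without a filter on level, the delta call at 12 h was lost (adjusted p = 0.054). At 24 h Ddx4 was called higher in WT (0.89 ± 0.23, adjusted p = 0.038), while the change in delta, 0.76 ± 0.23, was not called (adjusted p = 0.052). With the replicate number as a block, the delta change at 24 h was called too (adjusted p = 0.041). The WT call at 24 h was lost under quantile normalization (adjusted p = 0.063), median centring (0.052) and filters that keep genes below 1 FPKM (up to 0.081).

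Mael was called higher at 24 h than at 0 h in both genotypes. It encodes Maelstrom, a protein of the nuage that acts in transposon silencing by piRNAs (chr1:166201201-166238747, minus strand). Mael had 1.29 and 0.263 FPKM at 0 h, 2.64 and 1.88 at 12 h, and 5.13 and 3.30 at 24 h in delta libraries. In WT, Mael had 1.14 and 1.20 FPKM at 0 h, 2.59 and 3.18 at 12 h, and 5.90 and 3.21 at 24 h. The level went up at each step in all 4 series of same-numbered libraries, and at 12 h no library overlapped with 0 h of its genotype. The lowest value, that of delta 0 h replicate 2, rests on 8 reads. The change at 24 h was 1.6 ± 0.34 in delta (log2, SE, adjusted p = 0.013) and 1.31 ± 0.34 in WT (adjusted p = 0.040). The WT call was lost with a pseudocount of 0.1 (adjusted p = 0.083), under quantile normalization (0.055), under median centring (0.052) and with the same filters (up to 0.086). At 12 h the changes of 0.93 ± 0.34 in delta and 0.84 ± 0.34 in WT were not called (adjusted p = 0.14 and 0.25).

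Dazl differed more between the replicates of a group than between the genotypes. It encodes an RNA-binding protein of germ cells that promotes translation (chr17:50279395-50293636, minus strand). Dazl had 6.37 and 3.43 FPKM at 0 h, 16.3 and 7.87 at 12 h, and 10.04 and 5.42 at 24 h in delta libraries. In WT, Dazl had 10.2 and 3.47 FPKM at 0 h, 20.9 and 7.32 at 12 h, and 10.9 and 5.04 at 24 h. The replicate 1 library was the higher of its group at all 3 times in both genotypes, by 1.85 to 2.94 times, and 12 h was the highest time in all 4 same-numbered series. Within a number, the 12 h level was 2.56 and 2.30 times the 0 h level in delta, and 2.05 and 2.11 times in WT. Without regard to that pairing, the change at 12 h was 1.12 ± 0.63 in delta and 0.93 ± 0.63 in WT and was not called (adjusted p = 0.31 and 0.49). With the replicate number as a block it was called in both genotypes (adjusted p = 0.011 in delta and 0.031 in WT).

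Stk31, which encodes a Tudor domain and kinase domain protein of the testis (chr6:49395604-49469501, plus strand), also had its higher levels at 12 h. Stk31 had 3.996 and 2.09 FPKM at 0 h, 7.31 and 4.64 at 12 h, and 4.15 and 4.95 at 24 h in delta libraries. In WT, Stk31 had 3.93 and 1.38 FPKM at 0 h, 6.66 and 4.64 at 12 h, and 3.88 and 3.62 at 24 h. At 12 h no library overlapped with 0 h of its genotype, and 12 h was the highest time in 3 of the 4 series. The changes at 12 h, 0.80 ± 0.37 in delta and 0.94 ± 0.37 in WT, were not called (adjusted p = 0.23 and 0.24). Without both replicate 1 libraries of 0 h they were called (1.15 in delta, adjusted p = 0.035, and 1.47 in WT, adjusted p = 0.025).

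Of the 3 genes for meiotic chromosomes, Hormad1 was called higher at 24 h in delta. Its protein binds the axes of meiotic chromosomes and takes part in the synapsis checkpoint (chr3:95559677-95587671, plus strand). Hormad1 had 7.35 and 3.161 FPKM at 0 h, 8.77 and 6.50 at 12 h, and 16.0 and 14.1 at 24 h in delta libraries. In WT, Hormad1 had 7.42 and 4.62 FPKM at 0 h, 6.85 and 7.13 at 12 h, and 16.8 and 9.49 at 24 h. All 4 libraries of 24 h lay above all 8 earlier libraries. The change at 24 h was 1.44 ± 0.37 in delta (log2, SE, adjusted p = 0.030), and it was 0.99 ± 0.37 and not called in WT (adjusted p = 0.13). The block by replicate number gave a call in WT (adjusted p = 0.032). Without a filter on level, the call in delta was lost (adjusted p = 0.060). At 12 h the changes were 0.54 in delta and 0.22 in WT.

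Sycp3 encodes a protein of the axial elements of the synaptonemal complex (chr10:88459569-88473236, plus strand), and it had the highest mean level of the 9. Sycp3 had 8.73 and 12.0 FPKM at 0 h, 8.57 and 10.1 at 12 h, and 22.9 and 25.2 at 24 h in delta libraries. In WT, Sycp3 had 14.5 and 4.19 FPKM at 0 h, 8.50 and 5.15 at 12 h, and 22.9 and 10.5 at 24 h. In all 4 series 24 h was the highest time, and its libraries did not overlap with 0 h in delta but did in WT. The change at 24 h, 1.15 ± 0.50 in delta and 0.89 ± 0.50 in WT, was not called (adjusted p = 0.16 and 0.33). Without both replicate 1 libraries of 0 h the WT change was 1.68 and called (adjusted p = 0.036). Exons of Sycp3 overlap with Chpt1 on the other strand, which reached at most 3.13 FPKM. The strand setting of the read counting is not known here, so some reads may be shared.

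Sycp1 encodes the transverse filament protein of the synaptonemal complex (chr3:102818499-102936100, minus strand). Sycp1 had 0.345 and 1.23 FPKM at 0 h, 1.15 and 0.979 at 12 h, and 0.968 and 1.39 at 24 h in delta libraries. In WT, Sycp1 had 0.611 and 1.02 FPKM at 0 h, 1.39 and 0.930 at 12 h, and 1.16 and 0.719 at 24 h. The 3 times overlapped in both genotypes. No change passed the test, and the 24 h change was 0.32 in delta (95% interval −0.30 to 0.95) and 0.10 in WT (−0.53 to 0.72).

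Taf7l encodes a germ cell form of a subunit of the transcription factor TFIID (chrX:134460118-134476490, minus strand). Taf7l had 0.596 and 0.279 FPKM at 0 h, 1.14 and 0.743 at 12 h, and 1.504 and 1.41 at 24 h in delta libraries. In WT, Taf7l had 0.440 and 0.103 FPKM at 0 h, 2.61 and 0.669 at 12 h, and 2.68 and 0.825 at 24 h. All later libraries lay above those of 0 h of the same genotype, where 3 to 12 reads stand behind each value. The 24 h change was 0.78 ± 0.41 in delta and 1.04 ± 0.41 in WT and was not called (adjusted p = 0.23 and 0.16). A call was made in WT with the replicate block (adjusted p = 0.041). The summed FPKM of 9 fibroblast markers, 6 of which passed the filter, was also high in the replicate 1 libraries of WT. It was 21.7, 49 and 43.3 there at 0, 12 and 24 h, against 1.89 to 5.76 in replicate 2 of WT and 2.74 to 7.01 in delta. Whether fibroblasts were present, and any part of theirs in the WT values of Taf7l or the other germline genes, was not tested.

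Tex101, a glycoprotein of the germ cell surface (chr7:24668007-24676675, minus strand), was the lowest of the 9. Tex101 had 0.336 and 0.206 FPKM at 0 h, 0.436 and 1.05 at 12 h, and 0.823 and 1.96 at 24 h in delta libraries. In WT, Tex101 had 0.238 and 0.0463 FPKM at 0 h, 0.902 and 0.846 at 12 h, and 0.660 and 1.01 at 24 h. All later libraries lay above those of 0 h of the same genotype, which held 1 to 6 reads each. The 24 h change was 0.87 ± 0.27 in delta and 0.68 ± 0.27 in WT and was not called (adjusted p = 0.065 and 0.16). It was called in delta with the replicate block (adjusted p = 0.046). The pseudocount of 1 understates changes at such low levels.

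**Figure D2:**
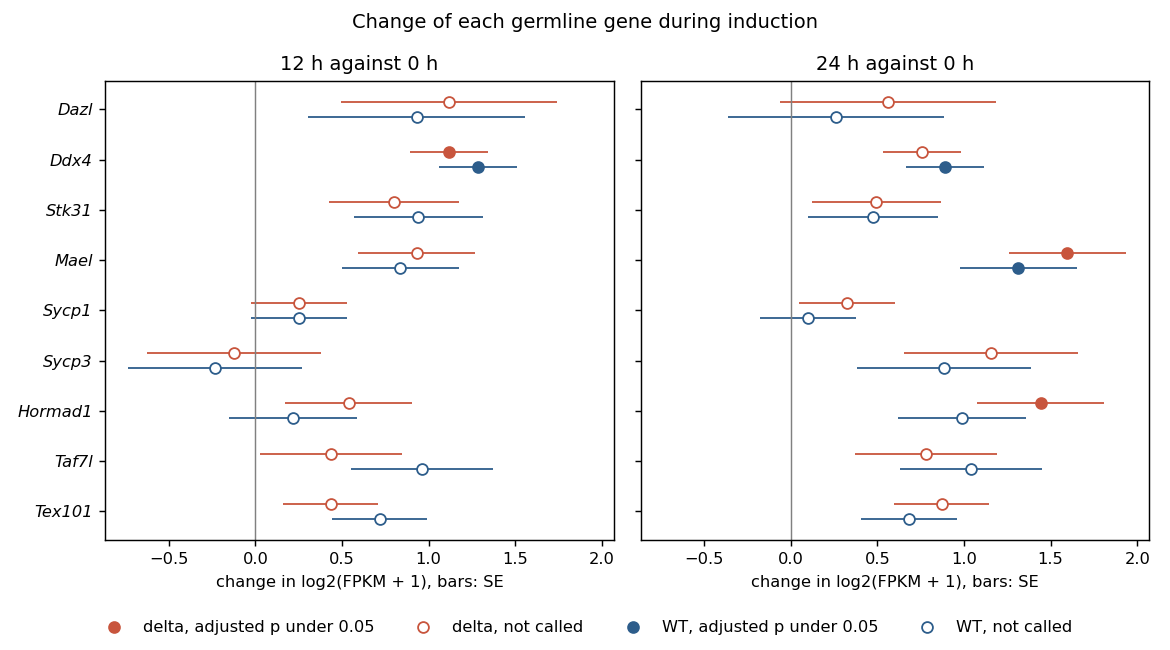
Change of each germline gene from 0 h on the log2(FPKM + 1) scale, at 12 and 24 h in delta and in WT, in panels by time, with bars for the SE of the limma fit and filled points for an adjusted p under 0.05. Ddx4 lies between 0.76 and 1.29 at both times in both genotypes, and Mael at 24 h reaches 1.6 in delta and 1.31 in WT.

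Counted over the 9 genes, 1 was called at 12 h in delta, where 7.0% of all genes tested were called, and 1 in WT, where 4.03% were. At 24 h it was 2 in delta (15.4% of all genes) and 2 in WT (10.2%). All of these calls were higher than at 0 h. Among only 9 genes, these counts lie near the share of all genes and are not read as a result about the 9. With the replicate block the counts were 2 at 12 h in delta (11.5% of all genes) and 2 in WT (7.07%), and 4 at 24 h in delta (21.2%) and 4 in WT (15%). Voom weights on the recovered reads gave 4 in delta at 24 h (15.9%), adding Ddx4 and Tex101.

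The median change of the 9 was 0.54 at 12 h in delta and 0.84 in WT, and 0.78 at 24 h in delta and 0.89 in WT, while the median of all genes lay between −0.05 and −0.02. At 24 h all 9 were above 0 in both genotypes, against 46.7% of all genes in delta and 47.4% in WT. Libraries that did not overlap with 0 h and lay higher were found at 24 h for 7 of 9 genes in delta, against 24.8% of all genes, and for 5 of 9 in WT, against 24.3%. At 12 h it was 6 of 9 in delta, against 24.4%, and 5 of 9 in WT, against 22.2%. The filter fixes part of these counts, since Ddx4, Taf7l and Tex101 were tested only because of their later levels.

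Counts over genes that pass the filter on 0 h libraries alone were added after the values were seen, and leave 12514 genes and 6 germline genes, Dazl, Stk31, Mael, Sycp1, Sycp3 and Hormad1. At 24 h all 6 were above 0 in both genotypes, against 42.6% of those genes in delta and 43.1% in WT, with medians of 0.86 in delta and 0.68 in WT for the 6. At 12 h 5 of the 6 were above 0 in each genotype. Libraries lay higher without overlap at 24 h for 4 of 6 in delta, against 20.5%, and 2 of 6 in WT, against 20.1%. At 12 h it was 3 of 6 in delta, against 20.9%, and 2 of 6 in WT, against 18.6%. Of the 12 same-numbered pairs of these 6 genes, 12 in delta and 10 in WT were higher at 24 h than at 0 h. A filter on 0 h libraries leans the other way, since it keeps genes that are high there.

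In voom on recovered reads the median of all genes moved up by 0.10 to 0.26 in these 4 comparisons. The medians of the 9 genes there were 1.27 to 1.59, above that shift. Ddx4, Taf7l and Tex101 are among the 9, so the filter fixes part of these medians too. The pseudocount of 1 does not enter voom, so these changes are not on the scale of those above.

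The 9 genes had different times of highest level. Dazl and Ddx4 were highest at 12 h in 4 of 4 same-numbered series. Mael, Sycp3, Hormad1 and Taf7l were highest at 24 h in 4 of 4. The change from 12 h to 24 h, averaged over both genotypes, was a comparison added after the values were seen. No germline gene was called in it, against 4.28% of all genes, and 4 had an unadjusted p under 0.05. It was 1.20 for Sycp3 (95% interval 0.40 to 2.00), 0.84 for Hormad1 (0.25 to 1.43), 0.57 for Mael (0.03 to 1.11) and −0.38 for Ddx4 (−0.74 to −0.02). With the replicate block, 2 were called (6.78% of all genes), Hormad1 higher (adjusted p = 0.027) and Dazl lower at 24 h (−0.61, adjusted p = 0.039).

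Across the 12 libraries, log2 levels of Mael and Hormad1 correlated at r = 0.90, Ddx4 and Stk31 at 0.85 and Dazl and Stk31 at 0.82. The lowest r among the 9 genes was 0.074, between Sycp1 and Hormad1. These are descriptions over 12 libraries that share time, genotype and replicate effects. Outside the 9, the 3 genes whose levels ran most like Ddx4 were Tnfrsf8, Zfp423 and Gba2 (r = 0.971, 0.967 and 0.963), and those for Dazl were Acad9, Appbp2 and Dcaf12 (0.909, 0.898 and 0.896). For Mael they were Zc3h8, Pus7 and Fam111a (0.959, 0.955 and 0.954) and for Hormad1 Wipi2, Sssca1 and Ccne1 (0.978, 0.971 and 0.964). Those for Stk31 were Cdc20, Syndig1 and Tcea3 (0.945, 0.936 and 0.928), for Sycp3 Pm20d2, G6pdx and B4galt2 (0.956, 0.942 and 0.936) and for Sycp1 Zfand3, Sufu and Arid2 (0.942, 0.932 and 0.923). Taf7l ran with Cdh2, Abi2 and Timp3 (0.911, 0.904 and 0.904) and Tex101 with Pomgnt2, Prmt2 and Pmaip1 (0.924, 0.916 and 0.895).

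**Figure D3:**
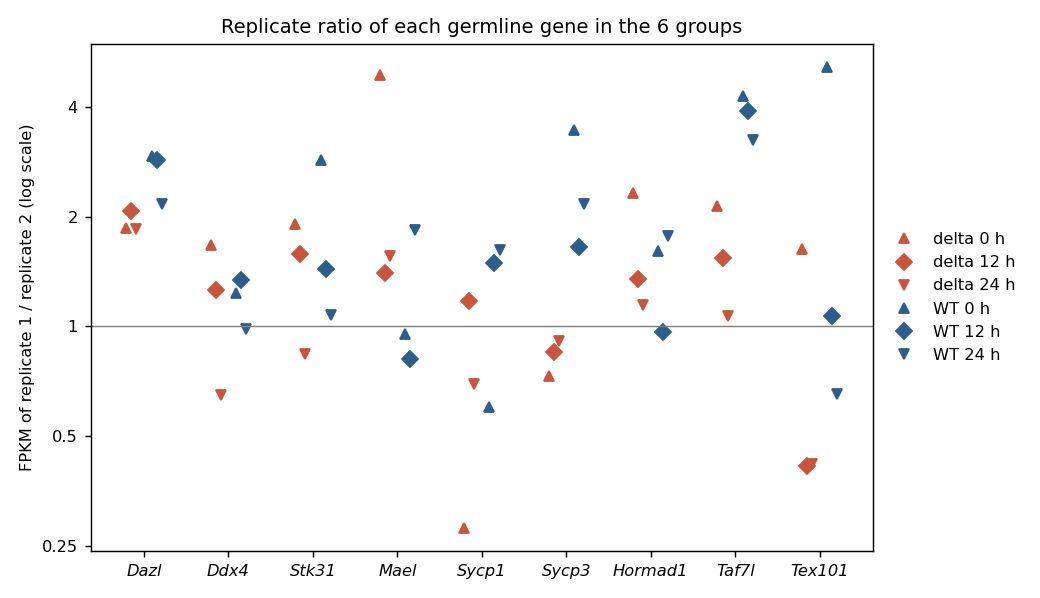
Ratio of replicate 1 to replicate 2 for each germline gene in each of the 6 groups, on a log axis, with 1 marking equal levels. Dazl lies between 1.85 and 2.94 in all 6 groups and Taf7l between 1.06 and 4.29, while Sycp3 is above 1 in the 3 WT groups and below 1 in the 3 delta groups.

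The comparison of genotypes asks whether loss of the Tcf15 region goes with other levels of the germline genes. None of the 9 was called at 0 h, 12 h or 24 h or averaged over the times, where 0.00715%, 0.0143%, 0.00715% and 0.0143% of all genes were called by limma. Over all genes, 173 were higher in delta and 109 lower at an unadjusted p under 0.05 at 0 h, 70 and 54 at 12 h, and 104 and 110 at 24 h. Evenly spread p-values would give more at each time, so the absence of a call says little here. All groups share 1 estimate of spread per gene, which takes in the wider gaps between 0 h replicates. The averaged differences of the 9 ran from −0.23 for Mael (95% interval −0.67 to 0.22) to 0.45 for Sycp3 (−0.21 to 1.10). For Ddx4 it was 0.01 (−0.28 to 0.31), so a difference beyond 0.31 lies outside the interval. For Dazl it was −0.15 (−0.96 to 0.67), which leaves a much wider range. Sycp3 libraries were higher in delta without overlap at 12 h and 24 h, and those of Stk31 at 24 h. That made 0 of 9 genes at 0 h, 1 at 12 h and 2 at 24 h, against 6.52%, 16.8% and 14.3% of all genes. For Sycp3 the replicate 1 libraries of delta and WT were nearly equal. They had 8.57 and 8.50 FPKM at 12 h, and 22.91 and 22.85 FPKM at 24 h. The difference of Sycp3 at 24 h was 0.59 (95% interval −0.54 to 1.73). The changes with time did not differ by a call between genotypes for any of the 9, at 12 h or at 24 h, with 0% of all genes called. At an unadjusted p under 0.05, 33 genes had a larger and 53 a smaller change in delta at 12 h, and 61 and 77 at 24 h, and voom called 0 as well.

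**Figure D4:**
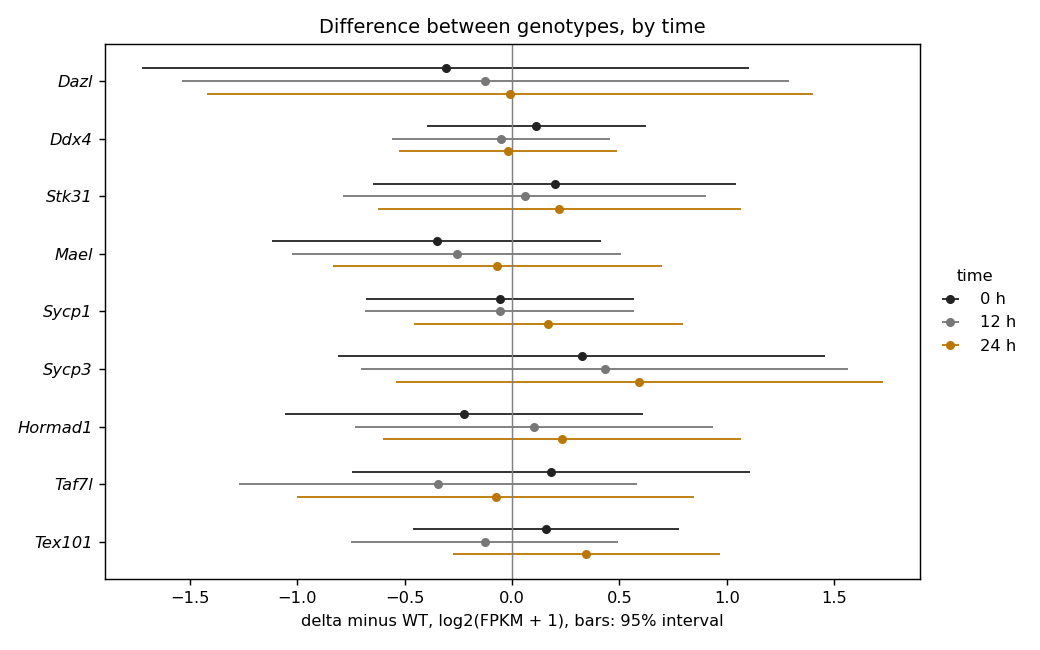
Difference of delta minus WT on the log2(FPKM + 1) scale for each germline gene at 0, 12 and 24 h, with its 95% interval from limma. All 27 intervals cross 0, and that of Sycp3 at 24 h is centred on 0.59.

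Other genes of the same pathways were counted from lists. Over all genes tested, 7.58% were called higher and 7.80% lower at 24 h in delta, and 5.27% higher and 4.94% lower in WT. Of 16 genes for the piRNA pathway and nuage, 7 passed the filter, and 3 were called higher at 24 h in delta and 2 in WT. Piwil2, a PIWI protein, was higher by 0.97 in both genotypes (adjusted p = 0.039 in delta and 0.049 in WT), and Gtsf1, a partner of PIWI proteins, by 0.68 in delta (0.028) and 1.02 in WT (0.0061). Of 20 genes for meiotic chromosomes and recombination in the table, 12 passed the filter, and 3 were called higher and 1 lower in delta, against 2 higher in WT. Smc1b, a meiotic cohesin subunit, was higher by 1.31 in delta (adjusted p = 0.0055) and 1.62 in WT (0.0026), and Meioc, which acts in entry into meiosis, by 1.43 in delta (0.0076) and 1.16 in WT (0.026). The gene called lower was Rec8, another meiotic cohesin subunit (−1.84 in delta, adjusted p = 0.016), named after its value was seen. Piwil2, Smc1b, Meioc and Syce3 passed the filter only through later libraries, which fixes part of these counts.

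Of 14 other germline genes 9 passed the filter, and 5 were called higher in delta at 24 h and 3 in WT. D1Pas1 was higher by 1.51 in delta and 1.54 in WT, and Zcwpw1, a reader of histone marks at recombination sites, by 1.35 in delta and 1.21 in WT. D1Pas1 is a copy of Ddx3x and may share reads with it. Slc25a31 and Tuba3b of this list passed the filter only through later libraries. The filter thus fixes part of the counts and medians of all these lists. Medians of the tested members at 24 h were 0.68 in delta and 0.43 in WT for the piRNA list, −0.01 and 0.37 for the meiotic list, and 1.22 and 1.05 for the other germline genes, against −0.05 and −0.03 over all genes. With the replicate block, which called 10.4% of all genes higher and 10.9% lower in delta and 7.72% and 7.23% in WT, the higher calls at 24 h were 4 in delta and 3 in WT for the piRNA list, 4 and 4 for the meiotic list, and 6 and 6 for the other germline genes. Over all settings, those without 1 library included, the higher calls ran from 0 to 4 in delta and 0 to 3 in WT for the piRNA list, from 0 to 4 and 1 to 4 for the meiotic list, and from 2 to 6 in each genotype for the other germline genes.

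**Figure D5:**
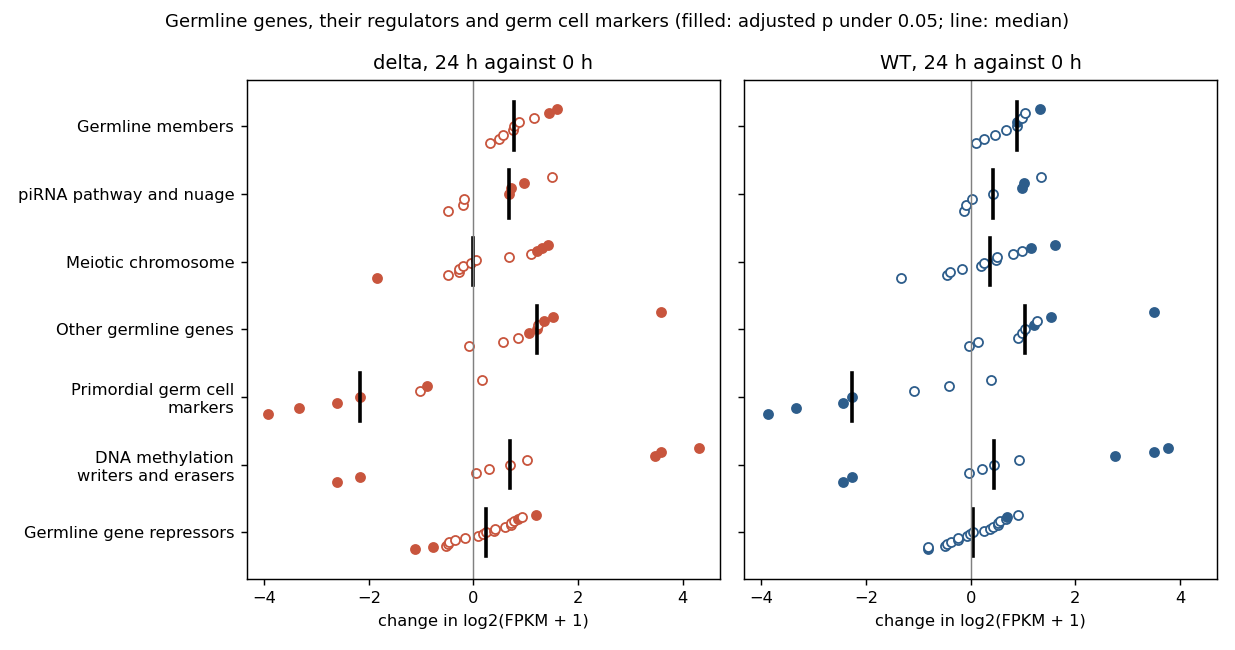
Change from 0 h to 24 h on the log2(FPKM + 1) scale for the 9 germline genes and for every tested gene of the piRNA, meiotic, other germline, germ cell marker, DNA methylation and repressor lists, with delta in the left panel and WT in the right. Each point is a gene, filled where its adjusted p is under 0.05, and the line is the median of the list. Of the genes plotted, Dnmt3a, Dnmt3b and Dnmt3l stand highest, at 2.76 to 4.30, and 5 of 7 germ cell markers in delta and 4 in WT are called lower.

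Among genes for DNA methylation, the de novo enzymes rose. Any link of theirs to the levels of the 9 germline genes was not tested. Dnmt3b was higher at 24 h by 3.47 in delta and 2.76 in WT, Dnmt3a by 4.30 in delta and 3.76 in WT, and their partner Dnmt3l by 3.58 in delta and 3.50 in WT, all called. Dnmt3l is also in the list of other germline genes. Dppa3, which protects from methylation, was called lower (−2.16 in delta and −2.44 in WT). Of 19 genes for repressors of germline genes, 2 were called higher and 2 lower in delta at 24 h, and 1 higher and 1 lower in WT, which is close to the shares of all genes called in either direction (15.4% in delta and 10.2% in WT). Wdr5 was lower (−0.78 in delta and −0.82 in WT), and Ehmt1, the GLP histone methyltransferase, higher (0.86 in delta and 0.69 in WT). In the fit with the replicate block, 5 repressor genes were called higher and 2 lower in delta, and 1 higher and 1 lower in WT. Over all settings 0 to 7 were called higher and 0 to 5 lower in delta, and 0 to 4 and 0 to 2 in WT.

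Markers of cell types moved as follows in bulk RNA, where fewer cells of a type and less RNA per cell cannot be told apart. The primordial germ cell list shares Dppa3 and Prdm14 with the list for DNA methylation. Whether germ cells were present was not tested. Of 7 markers of primordial germ cells, 5 were called lower at 24 h in delta and 4 in WT, and none higher. Their summed FPKM was 77.1 to 137 at 0 h, 31.6 to 37.1 at 12 h and 17.5 to 19.13 at 24 h in delta, and 125 to 160, 36.4 to 45.8 and 21.6 to 25 in WT. The 6 markers of epiblast-like cells were all called higher at 24 h in both genotypes. Of these, Pou3f1, Fgf5 and Sall2 passed the filter only through later libraries. Of 8 naive markers 6 were called lower in delta and 5 in WT. Nr0b1 was the 1 naive marker called higher in both genotypes. Over all genes, 7.58% were called higher and 7.80% lower at 24 h in delta, and 5.27% and 4.94% in WT. The summed level of 6 markers of the 2-cell-like state was 0.24 and 0 FPKM at 0 h, 0.268 and 0 at 12 h, and 0.448 and 2.31 at 24 h in delta, and 0.557 and 0.132, 0.314 and 0.321, and 1.04 and 1.8 in WT. It was thus higher at 24 h than at 0 h in each same-numbered pair, but none of these genes passed the filter. The part of any of these cell types in the levels of the 9 germline genes was not tested.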

How the data were processed

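The authors deposited FPKM per gene for 12 libraries. Per the submitters' processing notes, the tools were featureCounts 1.5.1, STAR 2.5.2b, edgeR 3.16.5 and cutadapt in an unnamed version, on the build mm10; roles, order and the strand setting are not given. FPKM is not a count, but low values were whole multiples of 1 read: gene lengths (GENCODE M21 for 80.1% of genes, found from the steps for 5708) gave whole reads, within 0.01, for 100% of the 28657 genes above 0. These reads gave the depth and an alternative with voom weights. Dazl and Ddx4 are among the genes with lengths found from the steps.

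The log2(FPKM + 1) values of the 13981 genes with at least 1 FPKM in at least 2 libraries entered 1 limma 3.58.1 model in R 4.3.3, with 6 group means, all 12 libraries, no block and variances that follow a trend with level (residual degrees of freedom 6, prior 3.11). Two-sided p-values were adjusted by Benjamini-Hochberg over all genes tested. The fit was tested on simulated data. SE is that of the model. Values per library stand as replicate 1, then replicate 2. Figures and counts used Python 3.11.15, numpy 2.4.6, pandas 2.3.3 and matplotlib 3.10.9. The members and lists were chosen with earlier results of these data known. The named list genes are up to 4 called ones per list with the smallest adjusted p in WT at 24 h. The profile genes are the 3 of highest Pearson r per member, without predicted symbols.

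The titles give the replicate numbers. Deviations from the group mean of same-numbered delta and WT libraries correlated at 0.70, 0.28 and 0.37 at 0, 12 and 24 h. Those between times correlated at 0.30 to 0.45 in delta and 0.26 to 0.46 in WT. The numbers were therefore taken as pairs in the alternative fit with a replicate block. That block takes 1 replicate effect for all 6 groups. Between groups that share neither time nor genotype, the correlations ran from −0.07 to 0.46. Other alternatives were the pseudocount, the filter, the normalization and leaving out libraries. Promoters came from the RefSeq table for GRCm38.p6, with 1 window per gene. Stk31 and Hormad1 had 2 windows there, and the first was used. In the meiotic list, 2 symbols were not matched and are not analysed here.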

Additional observations from a re-analysis of the deposited data

Results flagged for a closer look

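For Ddx4, delta lay above WT in both same-numbered pairs at 0 h (by 0.22 and 0.0049 on the log2(FPKM + 1) scale) and below WT in both at 12 h (−0.0877 and −0.014). This change of sign between the 2 times is what set it apart. The fitted 12 h change in delta minus that in WT was −0.16 (95% interval −0.88 to 0.56) and was not called by limma for Ddx4 (adjusted p = 1). With 2 libraries per group, single libraries could not be checked as outliers.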

How the results depend on the processing

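Counts of germline genes called changed with several settings, and the cause was not tested. At 12 h, 1 was called in delta and 1 in WT. With the replicate block each count was 2, without both replicate 1 libraries of 0 h it was 3 in delta and 2 in WT, and without a filter it was 0 in delta. At 24 h, 2 were called in each genotype. In delta it was 4 with the block, 4 with voom weights and 1 without a filter. In WT it was 4 with the block, 5 without both replicate 1 libraries of 0 h, 1 with a pseudocount of 0.1, and 0 with a filter at 0.1 FPKM, without a filter, under quantile normalization and under median centring. Between 24 h and 12 h it was 0, but 2 with the block and 2 without both 0 h replicate 1 libraries. Leaving out each replicate in turn gave 0 to 2 (delta) and 0 to 1 (WT) at 12 h, 1 to 3 (delta) and 0 to 3 (WT) at 24 h, and 0 to 1 for 24 h against 12 h. The share of all genes called moved too, but not always in the direction of these counts. Without both replicate 1 libraries of 0 h it was 17.1% in delta and 8.36% in WT at 12 h, 27.9% and 20.2% at 24 h, and 14.7% for 24 h against 12 h. Without a filter it was 2.53% in delta at 12 h, and 7.65% in delta and 5.01% in WT at 24 h. In WT at 24 h it was 6.97% with a filter at 0.1 FPKM, against 10.2% in the main fit. It rose there to 10.5% with a pseudocount of 0.1, 11.3% under quantile normalization and 10.6% under median centring, while the counts fell.

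The Ddx4 call at 12 h was lost in delta without either 12 h library (adjusted p = 0.17 and 0.088), and in WT without either 0 h library or without 12 h replicate 1 (0.056, 0.065 and 0.14). At 24 h in delta, the Mael call was lost without 24 h replicate 1 (0.11), and that of Hormad1 without 0 h replicate 2 or either 24 h library (0.066, 0.15 and 0.12). At 24 h in WT, the Ddx4 call was lost without any 1 library other than those of delta at 0 h and 24 h (0.051 to 0.16), and the Mael call without any 1 other than those of delta at 0 h and WT 24 h replicate 2 (0.057 to 0.26). Calls gained without 1 library were Mael at 12 h in delta (without 0 h replicate 1, 0.049), and at 24 h Ddx4 in delta (without 0 h replicate 1, 0.042), Tex101 in delta (without 24 h replicate 1, 0.046) and Hormad1 in WT (without either 0 h library of delta, 0.048 each). Between 24 h and 12 h they were Hormad1 (without either 0 h library of delta, 0.047 each) and Sycp3 (without either 0 h library of WT, 0.035 each). The counts for delta against WT and for the differences in change were 0 in every setting. The pairing by replicate number changed no call of the 9 genes beyond those given. No value called in the main fit changed sign in any setting. The change of Stk31 in WT at 24 h, not called in the main fit, ran from −0.05 to 1.0 over the settings. It was highest without both replicate 1 libraries of 0 h. Filters below 1 FPKM test more genes, and a fit without 1 library leaves a lone library taken to vary like the others. The 1 to 12 reads per library of Taf7l and Tex101 limit both at 0 h.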
